A study of Homo sapiens with 12 samples.

Results

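The genes described here encode proteins of homologous recombination and the DNA damage response. They were chosen by name as 39 of the 26485 genes in the annotation, with earlier results of these data known. They cover the damage kinases and their mediators (7 genes), end resection enzymes and helicases (7), and the BRCA complexes (5). Strand exchange factors (8), Fanconi anemia proteins (9), and PARP enzymes with the polymerase POLQ (3) make up the rest. RNA-seq was performed on OVCAR8, a human cell line long established from ovarian cancer, after 7 h of treatment. Vehicle-treated cells were the control, and the other conditions were 150 nM EC359, a small-molecule inhibitor of the LIF receptor (LIFR), 100 nM trametinib, an inhibitor of the kinase MEK, and the combination of both agents at these doses. Each of the 4 conditions had 3 libraries. All values come from this 1 cell line and 1 time point, and the labels do not say whether the 3 libraries of a condition came from separate cultures, so the p-values measure the spread between these libraries, which may be technical.

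A break through both strands of DNA is sensed by kinases such as ATM, while ATR responds to single-stranded DNA at broken ends and stalled forks. In homologous recombination the ends are trimmed to single strands, and BRCA1, PALB2 and BRCA2 then help these strands pair with the sister chromatid, from which the lost sequence is copied. Fanconi anemia proteins remove crosslinks between the strands with the help of this pathway, and POLQ joins ends that were trimmed but not repaired by it. Ovarian cancers that lack BRCA1 or BRCA2 are treated with PARP inhibitors, because such cells cannot repair the damage these drugs leave.

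Each library held between 24790392 and 32467283 reads assigned to genes, and 14866 genes, including all 39 repair genes, passed the filter on low counts. Levels are given as CPM, reads relative to library size, after TMM normalization, which scales the libraries to each other through the bulk of their genes, and levels of different genes are compared only per kilobase of exon. Tests are edgeR's quasi-likelihood tests on all 12 libraries, with p-values adjusted over all genes tested by the Benjamini-Hochberg method, and a change is called when the adjusted p was under 0.05. The epithelial keratins KRT8, KRT18 and KRT7 and the Mullerian marker PAX8 were high in every library (PAX8 from 73.7 to 122 CPM), while MUC16 reached at most 0.038 CPM and CDH1 at most 0.564 CPM. PAX8 itself was higher in the combination than in control (log2 fold change 0.68, edgeR adjusted p = 1.4e-25). It was the only 1 of the 6 Mullerian and epithelial markers tested that was higher, and 3 were lower (all genes, 35.0% and 34.7%). Mean levels in control and the combination were 4.36 and 2.45 CPM for WT1, 1047 and 836 for KRT18, and 11.4 and 11.4 for EPCAM. PTPRC, CD3E and MYH11, which mark blood and smooth muscle cells, had no counts in any library, and the summed level of 12 markers of other cell types lay between 2.35 and 3.89 CPM. Control library 2 stood somewhat apart from the other 2 controls, with a chi-square per degree of freedom of 6.73 and 7.52 against them and 2.82 between those, so counts without it are given beside the main ones. Scaling to total counts alone put the median log2 fold change of all genes at -0.15 with EC359 and -0.14 with the combination, where it was -0.01 after TMM normalization.

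With EC359 alone, repair genes fell more often than they rose. Compared to control, 22 of the 39 were lower and 9 were higher with EC359, where 30.3% of all genes tested were lower and 30.8% were higher. The median log2 fold change of the repair genes was -0.17 (all genes, -0.01). With trametinib alone 1 repair gene was lower and 5 were higher (all genes, 15.2% and 13.0%), and the median was 0.01. With the combination 21 were lower and 7 were higher (all genes, 34.7% and 35.0%), and the median was -0.17 (all genes, -0.01). In both the share that was lower was above that of all genes and the share that was higher was below it. Without control library 2, 21 were lower and 8 higher with EC359, 1 lower and 3 higher with trametinib, and 21 lower and 8 higher with the combination, and 3 were higher with trametinib also without trametinib library 1. Scaled to total counts, 27 were lower and 1 higher with EC359 (all genes, 6673 and 3117), and 28 lower and 4 higher with the combination (all genes, 6811 and 3840). The genes added among the lower ones under that scaling were CHEK1 (-0.10, adjusted p = 0.0228), DNA2 (-0.19, 0.0004), PARP2 (-0.19, 2.3e-06), RAD51D (-0.30, 0.0011) and RAD52 (-0.29, 0.00088) with EC359. With the combination they were CHEK1 (-0.19, 1.8e-05), BRIP1 (-0.18, 0.00062), FANCC (-0.19, 0.0069), FANCI (-0.15, 1e-05), PARP2 (-0.13, 0.00036), WRN (-0.16, 0.0026) and XRCC3 (-0.18, 0.0029), and with trametinib ATM (0.12, 0.0122) and TP53BP1 (0.11, 0.014) were added among the higher ones. Few changes were large. A fall of at least 2-fold was found for PALB2 with EC359 (all genes, 2.79%), and for FANCF, PALB2 and BLM with the combination (all genes, 5.87%), and no repair gene rose by 2-fold in these comparisons (all genes, 4.20% and 7.29%). With trametinib 0 changed by 2-fold (all genes, 0.478% higher and 0.955% lower). The 3 comparisons share the same control libraries.

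**Figure D1:**
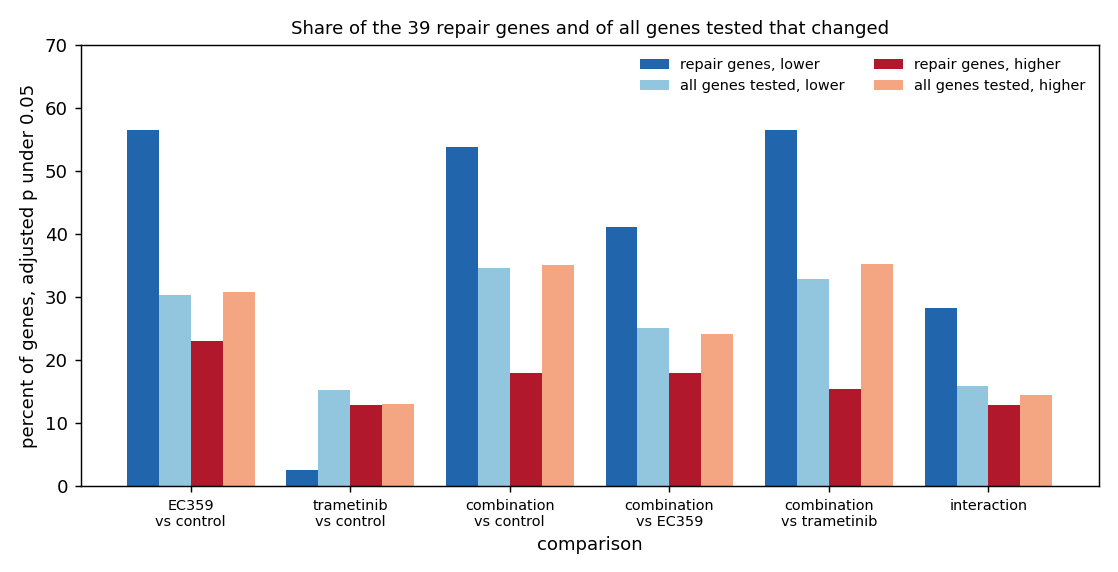
Percent of the 39 repair genes (dark bars) and of all 14866 genes tested (light bars) that were lower (blue) or higher (red) at an adjusted p under 0.05 in each comparison, on an axis from 0. In the combination against control, 21 repair genes were lower and 7 higher, while 34.7% and 35.0% of all genes were. Scaled to total counts instead, 28 repair genes were lower and 4 higher, as were 6811 and 3840 of all 14866 genes.

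In the repair genes, as in all genes tested, libraries were separated from the controls more often with EC359 and the combination than with trametinib. With EC359, all 3 libraries lay below all 3 controls for 24 repair genes and above them for 9 (all genes, 32.3% and 32.5%). With trametinib the numbers were 4 below and 10 above (all genes, 20.4% and 19.7%), and with the combination 20 below and 8 above (all genes, 35.8% and 36.0%). FANCD2 was the 1 gene called in the combination whose libraries overlapped the controls. In control, the levels per kilobase ran from 1.63 CPM per kb for RAD51B to 113 for PARP1 over 38 genes, leaving out MDC1, which was lower, and the median over all 39 was 7.08. PARP2 (47.0 CPM per kb), RAD51C (31.8), FANCI (27.1) and NBN (26.2) followed PARP1, while BRCA2 (2.36), BARD1 (2.41), RAD54B (2.92) and BRCA1 (3.002) were next above RAD51B. MDC1, a scaffold protein at broken ends, is annotated on 8 sequences, because its region has alternate copies in the genome build. How reads that fit several of these sequences were counted was not tested. MDC1 lay between 0.413 and 3.78 CPM, passed the test in no comparison, and its values are uncertain. Falls of MDC1 with the combination were called under some alternatives, for example compared to control when EC359 library 3 was left out (log2 fold change -0.92, edgeR adjusted p = 0.0128). Reads divided among several placements or overlapping genes entered PARP1, whose value was not whole in any of the 12 libraries. They also entered MDC1 in 11 libraries and, in 7 to 10 libraries, PARP2, CHEK1 and FANCG.

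**Figure D2:**
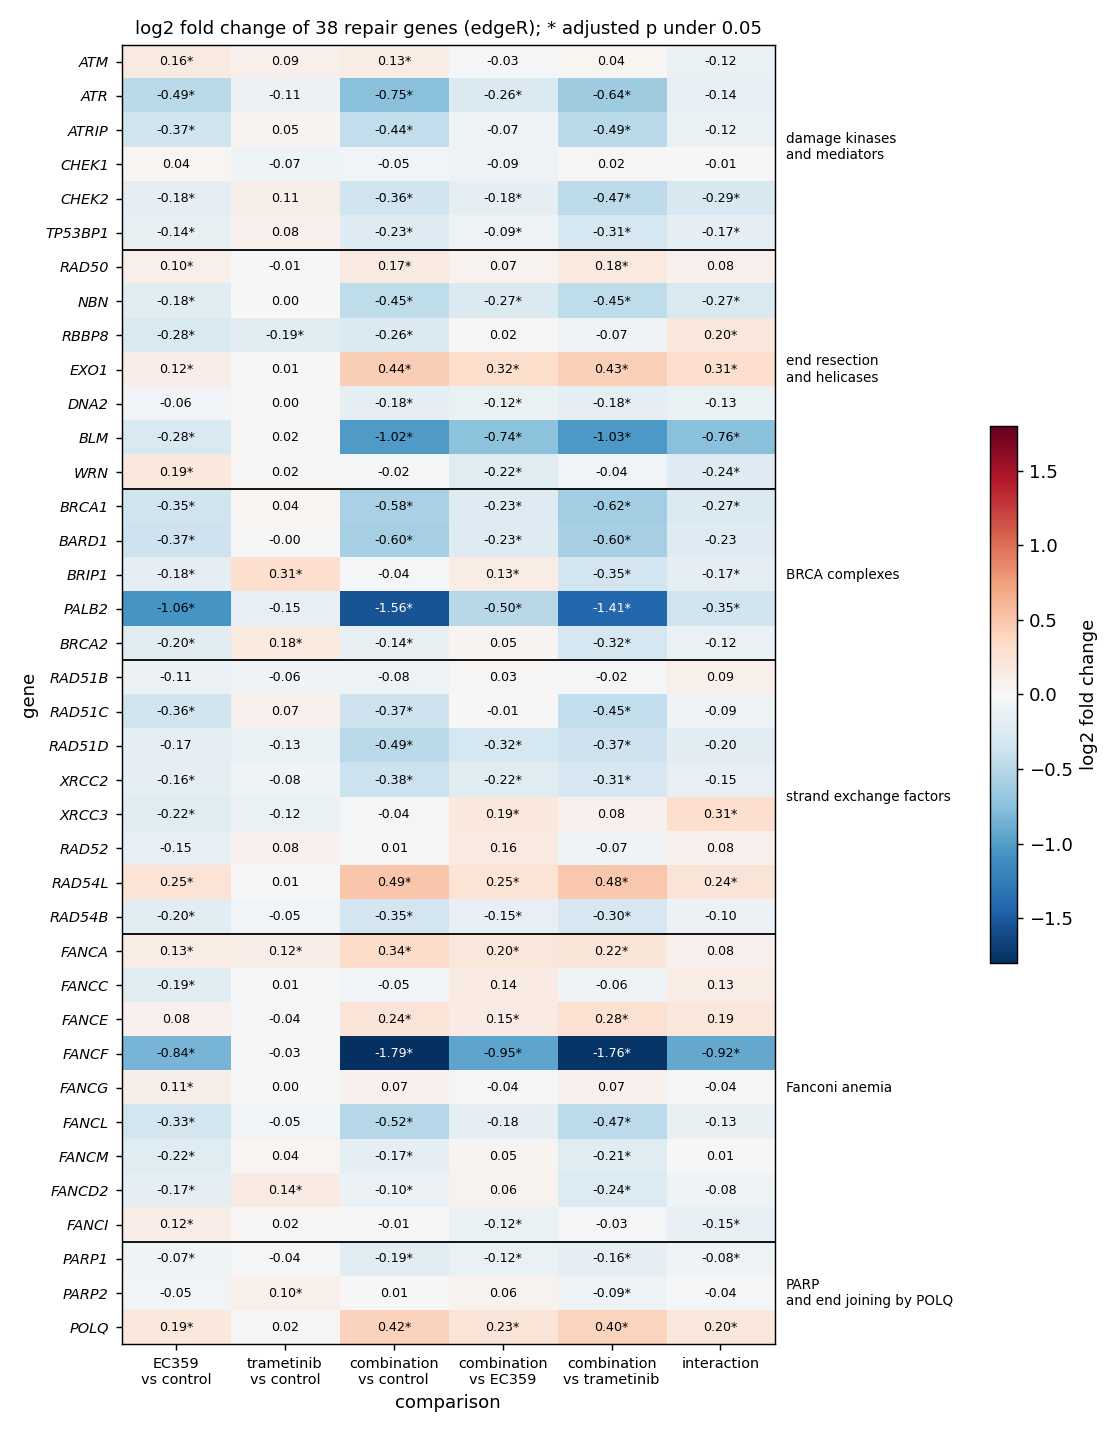
Log2 fold changes of 38 repair genes (rows, grouped by role; MDC1 is left out) in 6 comparisons (columns), from blue for lower to red for higher, with an asterisk where the adjusted p was under 0.05. PALB2 and FANCF were the lowest with EC359 (-1.06 and -0.84) and the combination (-1.56 and -1.79), while the trametinib column stayed between -0.19 and 0.31. Scaled to total counts, values above 0 turned below 0 for CHEK1, RAD50, EXO1, FANCA, FANCE, FANCG and FANCI with EC359, for ATM, RAD52, FANCG and PARP2 with the combination, for ATM, CHEK1, XRCC3 and FANCG in the combination against trametinib, and for FANCM in the interaction, while BARD1 and RAD50 with trametinib turned above 0.

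Genes of the BRCA complexes were lower with EC359, and most of them with the combination. All 5 genes were lower with EC359 (all genes, 30.3%), and 4 of 5 with the combination (all genes, 34.7%), where BRIP1 did not pass the test. PALB2, which bridges BRCA1 and BRCA2, lies on chromosome 16 from 23603162 to 23641357 (hg38, minus strand). Its level was 19.4, 18.6 and 19.5 CPM in the 3 control libraries, 9.17, 8.83 and 9.65 with EC359, 17.4, 17.8 and 16.6 with trametinib, and 6.23, 6.71 and 6.58 with the combination. No library of EC359 or the combination came near the controls, and the combination lay below EC359 in every library. The mean fell from 19.2 ± 0.488 CPM (SD, n = 3) to 6.50 ± 0.248 (SD, n = 3) with the combination, or 0.340 times the control level (log2 fold change -1.56, standard error 0.08, edgeR adjusted p = 3.4e-25). With EC359 alone it was 0.480 times (log2 fold change -1.06, edgeR adjusted p = 1.5e-18). The trametinib libraries also lay below the controls, but by 0.15 on the log2 scale, which did not pass the test (edgeR adjusted p = 0.11).

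BRCA1, the ubiquitin ligase subunit that promotes resection and recruits PALB2, lies on chromosome 17 from 43044295 to 43125483. Its level was 21.6, 22 and 22.6 CPM in control, 16.3, 17.7 and 17.9 with EC359, 23, 22.6 and 22.4 with trametinib, and 16.1, 14.6 and 13.5 with the combination. The combination was below EC359 in every library, and trametinib alone overlapped the controls. The log2 fold change was -0.35 with EC359 (standard error 0.06, edgeR adjusted p = 3.3e-06) and -0.58 with the combination (standard error 0.07, edgeR adjusted p = 1.2e-11). BARD1, its partner in the ligase, had 15, 11.5 and 13.3 CPM in control, 10.2, 10.9 and 9.62 with EC359, 12.6, 13.7 and 13.3 with trametinib, and 8.18, 9.16 and 8.79 with the combination. The controls of BARD1 were more spread than those of BRCA1, yet every EC359 and combination library was below them. Its log2 fold changes were -0.37 with EC359 and -0.60 with the combination (edgeR adjusted p = 0.0002 and 2.1e-08).

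BRCA2, which acts in strand exchange, and the helicase BRIP1 moved less, and in opposite directions with the single agents. BRCA2 was at 26.7, 25.6 and 28.4 CPM in control, 23.8, 23.6 and 23.2 with EC359, 31.5, 30.7 and 29.2 with trametinib, and 25.4, 23.6 and 24.3 with the combination. It fell with EC359 (log2 fold change -0.20, edgeR adjusted p = 0.0021) and rose with trametinib (log2 fold change 0.18, edgeR adjusted p = 0.008). The fall with the combination was smaller (log2 fold change -0.14, edgeR adjusted p = 0.022), and it was lost with DESeq2 (adjusted p = 0.0515), without control library 3 (edgeR adjusted p = 0.161) and without combination library 2 (edgeR adjusted p = 0.1). The rise with trametinib was lost without control library 2 or trametinib library 1 (edgeR adjusted p = 0.0707 and 0.0603). BRIP1 fell with EC359 (log2 fold change -0.18), rose with trametinib (0.31, edgeR adjusted p = 2.1e-07), and had a log2 fold change of -0.04 with the combination (edgeR adjusted p = 0.43; scaled to total counts, -0.18 and adjusted p = 0.00062). Summed over the 5 genes, the level was 122 to 132 CPM in control, 99.7 to 103 with EC359, 138 to 144 with trametinib and 95.5 to 102 with the combination, so the trametinib libraries were all above the controls and the others all below.

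Among the Fanconi anemia genes, FANCF stood out. FANCF is an adaptor of the core complex that attaches ubiquitin to FANCD2 and FANCI, and it is the only repair gene of the 39 with a single exon block, on chromosome 11 from 22622533 to 22625841 (minus strand). Its level was 14.1, 14.5 and 14.1 CPM in control, 8.41, 7.96 and 7.49 with EC359, 14.2, 12.9 and 14.7 with trametinib, and 4.11, 4.396 and 3.83 with the combination. Trametinib libraries lay on both sides of the controls, while the EC359 and combination libraries formed separate groups below. The combination was at 0.289 times the control level (log2 fold change -1.79, standard error 0.09, edgeR adjusted p = 1.5e-24) and EC359 at 0.558 times (log2 fold change -0.84, standard error 0.09, edgeR adjusted p = 1e-12).

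The other Fanconi genes went in different directions. FANCL, the ubiquitin ligase of the core complex, fell by 0.33 on the log2 scale with EC359 and by 0.52 with the combination (edgeR adjusted p = 0.00064 and 5.9e-07). FANCM, the DNA translocase that anchors the complex, fell by 0.22 and 0.17. FANCD2, 1 of the pair of proteins the complex modifies, fell by 0.17 and 0.10 (edgeR adjusted p = 0.0012 and 0.039), and rose with trametinib (log2 fold change 0.14, edgeR adjusted p = 0.0094; without control library 2, adjusted p = 0.0656). Its fall with the combination was lost with DESeq2 (adjusted p = 0.0796) and without control library 1 or 3 or combination library 1 or 2 (edgeR adjusted p = 0.114, 0.113, 0.0855 and 0.212). FANCI, its partner, rose with EC359 (log2 fold change 0.12, edgeR adjusted p = 0.00035; scaled to total counts, -0.02) and had a log2 fold change of -0.01 with the combination (edgeR adjusted p = 0.82; scaled to total counts, -0.15 and adjusted p = 1e-05). FANCA, a core complex scaffold, was higher with all 3 treatments. It was at 81.5, 80.5 and 82.8 CPM in control, 91.2, 89.2 and 87.9 with EC359, 87.8, 88.8 and 89.8 with trametinib, and 102, 102 and 105 with the combination. Its log2 fold changes were 0.13, 0.12 and 0.34 (edgeR adjusted p = 0.00038, 0.0024 and 4.9e-14), of which the first became -0.0029 when libraries were scaled to total counts. FANCE rose with the combination (log2 fold change 0.24, edgeR adjusted p = 0.00052; scaled to total counts, 0.10 and adjusted p = 0.144). FANCG rose with EC359 (log2 fold change 0.11; scaled to total counts, -0.02) and FANCC fell with it (log2 fold change -0.19), and neither passed the test with the combination. These calls were lost without control library 3 for FANCG (edgeR adjusted p = 0.0801) and without EC359 library 1 for FANCC (adjusted p = 0.0739). With the combination FANCC was lower when scaled to total counts (-0.19, adjusted p = 0.0069), and FANCG was higher without control library 2 (0.10, adjusted p = 0.0478).

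Resection enzymes and helicases were divided. BLM, the helicase that helps unwind broken ends and dissolves joined recombination intermediates, lies on chromosome 15 from 90717327 to 90815462. Its level was 23.3, 22.9 and 23.8 CPM in control, 19.99, 18.2 and 19.7 with EC359, 24, 23.96 and 22.9 with trametinib, and 10.5, 11.4 and 12.6 with the combination. With EC359 alone its libraries lay a little below the controls, trametinib alone overlapped the controls, and the combination was far below all other libraries. It fell to 0.495 times the control level with the combination (log2 fold change -1.02, standard error 0.07, edgeR adjusted p = 3.9e-20) and to 0.825 times with EC359 (log2 fold change -0.28, edgeR adjusted p = 0.00013).

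EXO1, the exonuclease that extends resection, moved the other way. It was at 49.2, 44.8 and 46.7 CPM in control, 53.8, 49.2 and 50.05 with EC359, 48, 48.8 and 45.0 with trametinib, and 63.3, 62.6 and 64.8 with the combination. Every combination library was above every other library. The rise was 0.44 on the log2 scale with the combination (standard error 0.04, edgeR adjusted p = 8.4e-14) and 0.12 with EC359 (edgeR adjusted p = 0.014), which became -0.01 when libraries were scaled to total counts and was lost without control library 2 or EC359 library 1 (edgeR adjusted p = 0.0958 and 0.111). Of the subunits of the MRN complex, which holds the broken ends, NBN fell from 124 ± 1.40 CPM (SD, n = 3) to 90.7 ± 3.22 (SD, n = 3) with the combination (log2 fold change -0.45, edgeR adjusted p = 1e-18), while RAD50 rose from 46.7 ± 1.105 to 52.4 ± 0.469 CPM (log2 fold change 0.17, edgeR adjusted p = 0.00033; scaled to total counts, 0.03 and adjusted p = 0.564). RBBP8 (CtIP), which starts resection with MRN, was the only repair gene to fall with trametinib, from 62.7, 61.8 and 62.8 CPM to 57.7, 54.3 and 52.7 (log2 fold change -0.19, edgeR adjusted p = 0.00013). It fell by 0.28 with EC359 and by 0.26 with the combination. The nuclease DNA2 fell with the combination (log2 fold change -0.18), and the helicase WRN rose with EC359 (log2 fold change 0.19, edgeR adjusted p = 0.00035; scaled to total counts, 0.06 and adjusted p = 0.263) but not with the combination (log2 fold change -0.02, edgeR adjusted p = 0.69; scaled to total counts, -0.16 and adjusted p = 0.0026).

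Of the damage kinases, ATR fell and ATM rose. ATR lies on chromosome 3 from 142449235 to 142578826, and its level was 32.5, 32.9 and 31.5 CPM in control, 20.4, 24.8 and 23.6 with EC359, 30.5, 31.0 and 28.3 with trametinib, and 18.2, 18.4 and 21.1 with the combination. EC359 and combination libraries were all below the controls and overlapped each other slightly. Those of trametinib were below the controls too, but the change did not pass the test (log2 fold change -0.11, edgeR adjusted p = 0.16). The log2 fold change was -0.49 with EC359 (standard error 0.06, edgeR adjusted p = 8.6e-10) and -0.75 with the combination (standard error 0.06, edgeR adjusted p = 2.3e-15). ATRIP, which brings ATR to single-stranded DNA, was at 16.5, 15.5 and 17.2 CPM in control, 12.8, 12.7 and 12.7 with EC359, 17.5, 16.1 and 17.2 with trametinib, and 11.7, 12.6 and 12 with the combination. Its levels with EC359 and the combination were close to each other and below all controls (log2 fold changes -0.37 and -0.44, edgeR adjusted p = 1.3e-05 and 2.9e-07).

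ATM was at 74.9, 73.2 and 78.4 CPM in control, 84.0, 82.0 and 87.8 with EC359, 81.7, 80.8 and 79.0 with trametinib, and 87.6, 79.0 and 82.1 with the combination. All treated libraries were above all controls. The log2 fold changes were 0.16 with EC359 and 0.13 with the combination (edgeR adjusted p = 0.00012 and 0.0012), which became 0.03 and -0.006 when libraries were scaled to total counts, and 0.09 with trametinib (edgeR adjusted p = 0.053). The value with trametinib passed the test with DESeq2 size factors or without the filter (adjusted p = 0.0413 in both), scaled to total counts (0.12, adjusted p = 0.0122), with only the groups compared (adjusted p = 0.0396), and without control library 3 or combination library 1 (edgeR adjusted p = 0.0206 and 0.0488). CHEK1, the checkpoint kinase that ATR activates, did not pass the test after TMM normalization in any comparison, with log2 fold changes of 0.04, -0.07 and -0.05 with EC359, trametinib and the combination. Scaled to total counts it was lower with EC359 (-0.10, adjusted p = 0.0228), with the combination (-0.19, adjusted p = 1.8e-05), and in the combination against EC359 (-0.09, adjusted p = 0.0446) and trametinib (-0.14, adjusted p = 0.0011). The value against EC359, -0.09 (adjusted p = 0.058), also passed with DESeq2 size factors (adjusted p = 0.0481) and without EC359 library 1 or combination library 2 (edgeR adjusted p = 0.0325 and 0.0333). CHEK2, the kinase that ATM activates, fell by 0.18 with EC359 and by 0.36 with the combination (edgeR adjusted p = 0.019 and 8.7e-06), and the first was lost with DESeq2 (adjusted p = 0.0524) and without control library 2 or EC359 library 2 (edgeR adjusted p = 0.0766 and 0.115). TP53BP1, which shields ends from resection, fell by 0.14 and 0.23 (edgeR adjusted p = 0.00069 and 1e-07).

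Strand exchange factors, which act when the trimmed strand pairs with the intact copy, fell or did not pass the test compared to control, with the exception of RAD54L, which rose. RAD51C fell from 48.0 ± 0.137 CPM (SD, n = 3) to 37.4 ± 0.949 with EC359 and 37.1 ± 2.24 with the combination (log2 fold changes -0.36 and -0.37, edgeR adjusted p = 3.7e-10 and 1e-10). RAD51D fell with the combination (log2 fold change -0.49, edgeR adjusted p = 7.5e-07) and not with EC359 (-0.17, edgeR adjusted p = 0.072), although its EC359 libraries lay below the controls. XRCC2 fell by 0.16 and 0.38, of which the first was lost with DESeq2 (adjusted p = 0.051) and without control library 1 or 3 or EC359 library 2 (edgeR adjusted p = 0.0628, 0.096 and 0.102). XRCC3 fell with EC359 (log2 fold change -0.22, edgeR adjusted p = 0.00032) and stood at -0.04 with the combination. RAD51B, the lowest per kilobase apart from MDC1, and RAD52, which anneals single strands, passed the test in no comparison, though RAD52 was lower with EC359 when scaled to total counts (-0.29, adjusted p = 0.00088). RAD54B, a DNA translocase, fell by 0.20 and 0.35. Its relative RAD54L, which helps the trimmed strand invade the intact copy, lies on chromosome 1 from 46247695 to 46278473 and was at 56.9, 57.6 and 56.2 CPM in control, 68.8, 66.5 and 67.3 with EC359, 56.9, 58.5 and 56.7 with trametinib, and 81.3, 77.3 and 81.7 with the combination. The EC359 libraries were above the controls and the combination libraries above EC359, while trametinib was level with control. The log2 fold change was 0.25 with EC359 and 0.49 with the combination (edgeR adjusted p = 6.3e-08 and 3.9e-18), the largest rise among the calls in both, and RAD54L was the 1 gene that still rose with EC359 when libraries were scaled to total counts.

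PARP1, which marks breaks with poly(ADP-ribose), was the most abundant of the 39 genes and changed little. It was at 443, 457 and 450 CPM in control, 430, 423 and 430 with EC359, 436, 443 and 435 with trametinib, and 396, 390 and 394 with the combination. The combination libraries were below all others, at 0.874 times the control level (log2 fold change -0.19, standard error 0.02, edgeR adjusted p = 4.2e-11). PARP2 rose with trametinib only among the comparisons with control (log2 fold change 0.10, edgeR adjusted p = 0.018), a call lost when any of 4 single libraries was left out, namely control library 1 or 3 or trametinib library 1 or 2 (edgeR adjusted p = 0.0676, 0.0802, 0.0583 and 0.096). Its log2 fold changes with EC359 and the combination were -0.05 and 0.0063, and when scaled to total counts it was lower with both (-0.19 and -0.13, adjusted p = 2.3e-06 and 0.00036). POLQ was at 37.1, 37.6 and 38.6 CPM in control, 43.4, 42.5 and 43.7 with EC359, 37.7, 37.9 and 39.6 with trametinib, and 53, 48.7 and 50.05 with the combination. It rose step by step from control to EC359 to the combination, without overlap between these groups. Its log2 fold changes were 0.19 and 0.42 (edgeR adjusted p = 0.00018 and 1.7e-12), and the first was 0.06 (adjusted p = 0.251) when libraries were scaled to total counts.

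**Figure D3:**
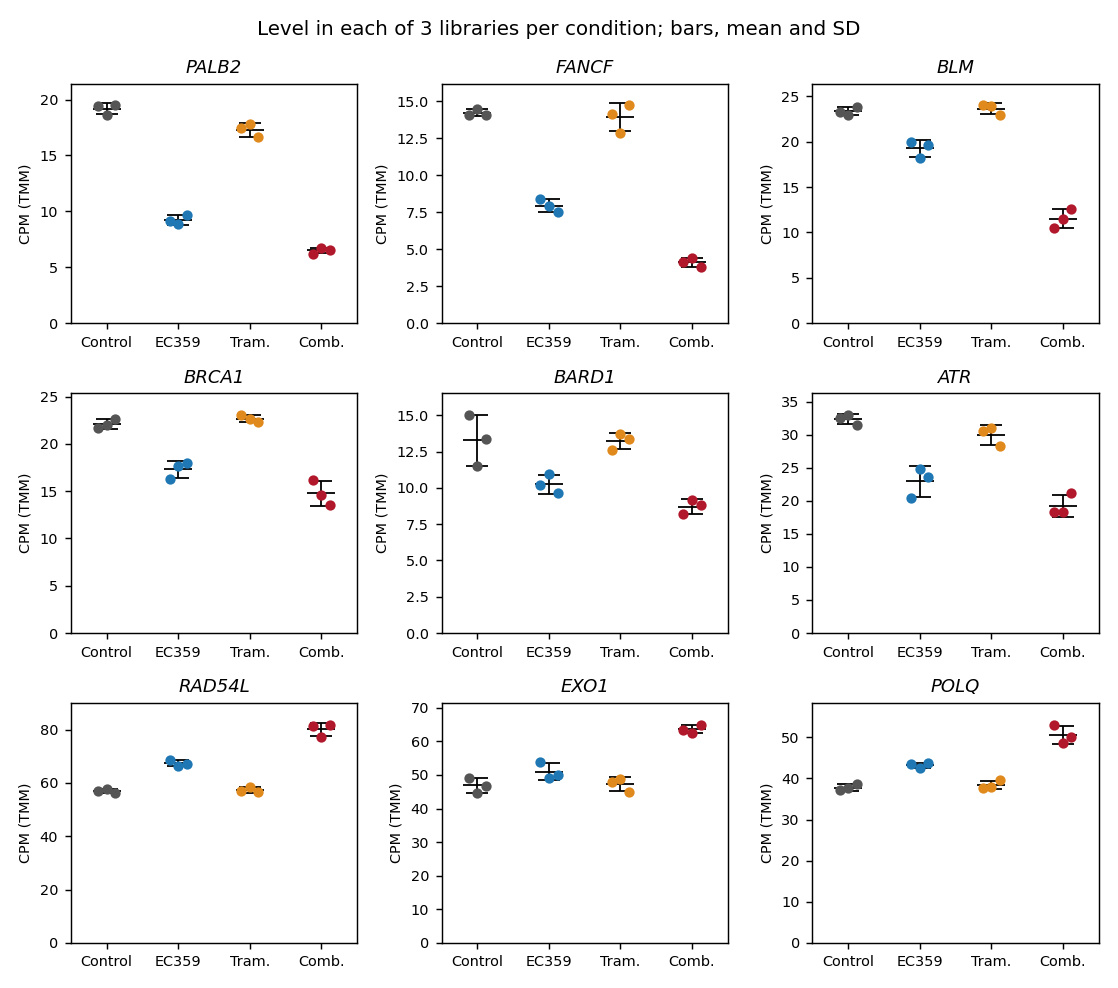
CPM after TMM normalization in each of the 3 libraries of each condition for 9 repair genes, on axes from 0; dots are libraries and bars show the mean and SD. PALB2, FANCF, BLM, BRCA1, BARD1 and ATR were lowest with the combination, and RAD54L, EXO1 and POLQ were highest with it. The trametinib libraries stayed close to the controls, though those of PALB2 and ATR all lay below them.

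Of the genes with the 3 largest falls and the 2 largest rises with the combination, 4 had upstream sequence that could be shown, so that their starts can be set side by side. The stretches are upstream of both the RefSeq start and the start in the authors' annotation (GRCh38.p14, sequences from RefSeq), run 5′ to 3′ on the gene's strand, and were searched on both strands for an E2F motif (TTCCCGC, with the variants TTCGCGC, then also TTGCCGC, and lastly TTGGCGC), the CCAAT box (CCAAT), the CHR element (TTTGAA or TTCGAA), an ETS motif (CCGGAAG), the CRE (TGACGTC) and the AP-1 motif (TGACTCA). Matches are in capitals; ATTGG is CCAAT and GCGGGAA is TTCCCGC on the other strand, and the CRE of EXO1 matches on both strands at 1 overlapping site. They are FANCF (chr11:22625842-22626073, minus strand), BLM (chr15:90717141-90717326, plus strand), RAD54L (chr1:46247438-46247687, plus strand) and EXO1 (chr1:241847954-241848190, plus strand).
FANCF: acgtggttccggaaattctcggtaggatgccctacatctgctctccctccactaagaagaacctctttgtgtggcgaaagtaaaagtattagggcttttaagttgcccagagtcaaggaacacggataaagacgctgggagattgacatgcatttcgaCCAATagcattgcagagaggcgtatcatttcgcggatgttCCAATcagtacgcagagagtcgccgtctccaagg
BLM: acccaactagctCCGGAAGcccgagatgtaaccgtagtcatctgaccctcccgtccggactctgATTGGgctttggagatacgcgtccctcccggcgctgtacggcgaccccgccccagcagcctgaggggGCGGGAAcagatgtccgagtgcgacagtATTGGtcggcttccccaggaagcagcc
RAD54L: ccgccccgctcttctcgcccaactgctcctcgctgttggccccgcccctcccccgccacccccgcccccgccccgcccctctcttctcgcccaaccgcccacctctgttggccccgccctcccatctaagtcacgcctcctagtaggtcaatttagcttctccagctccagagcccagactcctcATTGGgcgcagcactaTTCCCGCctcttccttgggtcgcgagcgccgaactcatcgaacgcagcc
EXO1: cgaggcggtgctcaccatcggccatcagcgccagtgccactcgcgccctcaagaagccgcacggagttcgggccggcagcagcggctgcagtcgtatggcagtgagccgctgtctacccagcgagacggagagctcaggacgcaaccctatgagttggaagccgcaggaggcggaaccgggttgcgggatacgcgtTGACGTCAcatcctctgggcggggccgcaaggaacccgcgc
The 2 genes that fell both had 2 CCAAT matches, BLM with an E2F and an ETS match besides, while RAD54L had 1 E2F and 1 CCAAT match and EXO1 neither. PALB2 starts so close to the gene DCTN5 that only 8 bases lie between them. Over the 250 bases upstream, 33 of the 39 repair genes and 10405 of the genes tested had a window. CCAAT was in 14 of the 33 windows (42.4%; all genes, 34.7%), E2F in 9 (27.3%; 17.7%), ETS in 9 (27.3%; 15.4%), CHR in 4 (12.1%; 9.4%), CRE in 4 (12.1%; 4.9%) and AP-1 in 0 (all genes, 2.5%). Among the 18 windows of genes that fell with the combination 8 held CCAAT, 6 ETS and 4 E2F, and among the 7 of genes that rose 3 held CCAAT, 3 ETS and 2 E2F. CHR was in 0 of the 18 and in 2 of the 7. A match is a description of the letters and not a binding site, and these windows are few.

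What trametinib added to EC359 was asked by comparing the combination with EC359. Here 16 repair genes were lower and 7 were higher in the combination (all genes, 25.2% and 24.1%), with a median of -0.07, and 0 changed by 2-fold (all genes, 1.55% lower and 1.69% higher). The largest falls were in FANCF (log2 fold change -0.95, edgeR adjusted p = 3.8e-12), BLM (-0.74, 1.1e-13), PALB2 (-0.50, 1.3e-06), RAD51D (-0.32, 0.0013) and NBN (-0.27, 8.1e-10). The largest rises were in EXO1 (0.32, 5.9e-09), RAD54L (0.25, 6.2e-08), POLQ (0.23, 2e-05), FANCA (0.20, 2.7e-07) and XRCC3 (0.19, 0.004). BRCA1 and ATR were lower (-0.23 and -0.26, edgeR adjusted p = 0.0035 and 0.00092), while BRCA2 and ATM did not pass the test (0.05 and -0.03). CHEK2, TP53BP1, DNA2, BARD1, BRIP1, RAD54B and FANCE each lost their call here in 3 or 4 of the 12 fits with 1 library left out.

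What EC359 added to trametinib was asked by comparing the combination with trametinib. In this comparison 22 repair genes were lower and 6 were higher (all genes, 32.9% and 35.2%), with a median of -0.21. Scaled to total counts, 30 were lower and 3 higher, but that scaling also lowered the median of all genes, so the shares given here do not apply to it. All 5 genes of the BRCA complexes were lower, from -0.32 for BRCA2 to -1.41 for PALB2, and the falls of FANCF (-1.76), PALB2 and BLM (-1.03) were over 2-fold (all genes, 5.46%), while 0 rose by 2-fold (all genes, 6.11%). ATR (-0.64) and BRCA1 (-0.62) followed, with edgeR adjusted p = 8.7e-13 and 2.3e-12. The largest rises were in RAD54L (0.48), EXO1 (0.43), POLQ (0.40), FANCE (0.28) and FANCA (0.22). Scaled to total counts, FANCE and FANCA no longer passed the test (0.11 and 0.05, adjusted p = 0.0942 and 0.142), nor did RAD50 (0.18 after TMM normalization, 0.01 and adjusted p = 0.806 under this scaling). ATM, CHEK1, FANCC, FANCG, FANCI, RAD52, RBBP8 and WRN were added among the lower genes, with values from -0.09 for FANCG to -0.24 for RBBP8.

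Whether both agents together did more or less than the sum of their separate log2 effects was tested as an interaction. The value passed the test below 0 for 11 repair genes and above 0 for 5 (all genes, 15.9% and 14.4%), and their median was -0.12 (all genes, -0.01). FANCF had the lowest value, -0.92 (standard error 0.13, edgeR adjusted p = 6.2e-08), since EC359 and trametinib alone gave -0.84 and -0.03 and the combination -1.79. BLM followed at -0.76 (standard error 0.09, edgeR adjusted p = 2.1e-09), with -0.28 and 0.02 for the single agents and -1.02 together. PALB2 (-0.35), CHEK2 (-0.29), NBN (-0.27) and BRCA1 (-0.27) were also below the sum (edgeR adjusted p = 0.011, 0.019, 3.3e-06 and 0.021). The calls of BRCA1, CHEK2, BRIP1 and PARP1 rested on single libraries. Without combination library 3 the value of BRCA1 was -0.21 (adjusted p = 0.0961), it was lost too without EC359 library 2 or 3 or trametinib library 1, and CHEK2 was lost without EC359 library 3 (adjusted p = 0.063). BRIP1 (-0.17) was lost with DESeq2 (adjusted p = 0.0722) and in 6 of the 12 fits with 1 library left out, without control library 2 or 3, EC359 library 3, trametinib library 1 or 2 or combination library 2 (edgeR adjusted p from 0.0502 to 0.208). PARP1 (-0.08, adjusted p = 0.044) was lost without the filter (adjusted p = 0.0508) and in 8 of the 12, all but those without control library 2, EC359 library 2, trametinib library 3 or combination library 1 (edgeR adjusted p from 0.0601 to 0.117). Above the sum were EXO1 (0.31), XRCC3 (0.31), RAD54L (0.24), RBBP8 (0.20) and POLQ (0.20), with edgeR adjusted p from 5.4e-05 to 0.01. EXO1, RAD54L and POLQ rose further with both agents than with EC359, whereas XRCC3 stood at -0.22 with EC359 and -0.04 with both, and RBBP8 at -0.28 and -0.26. Without EC359 library 3, 7 genes in place of 11 passed below 0.

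**Figure D4:**
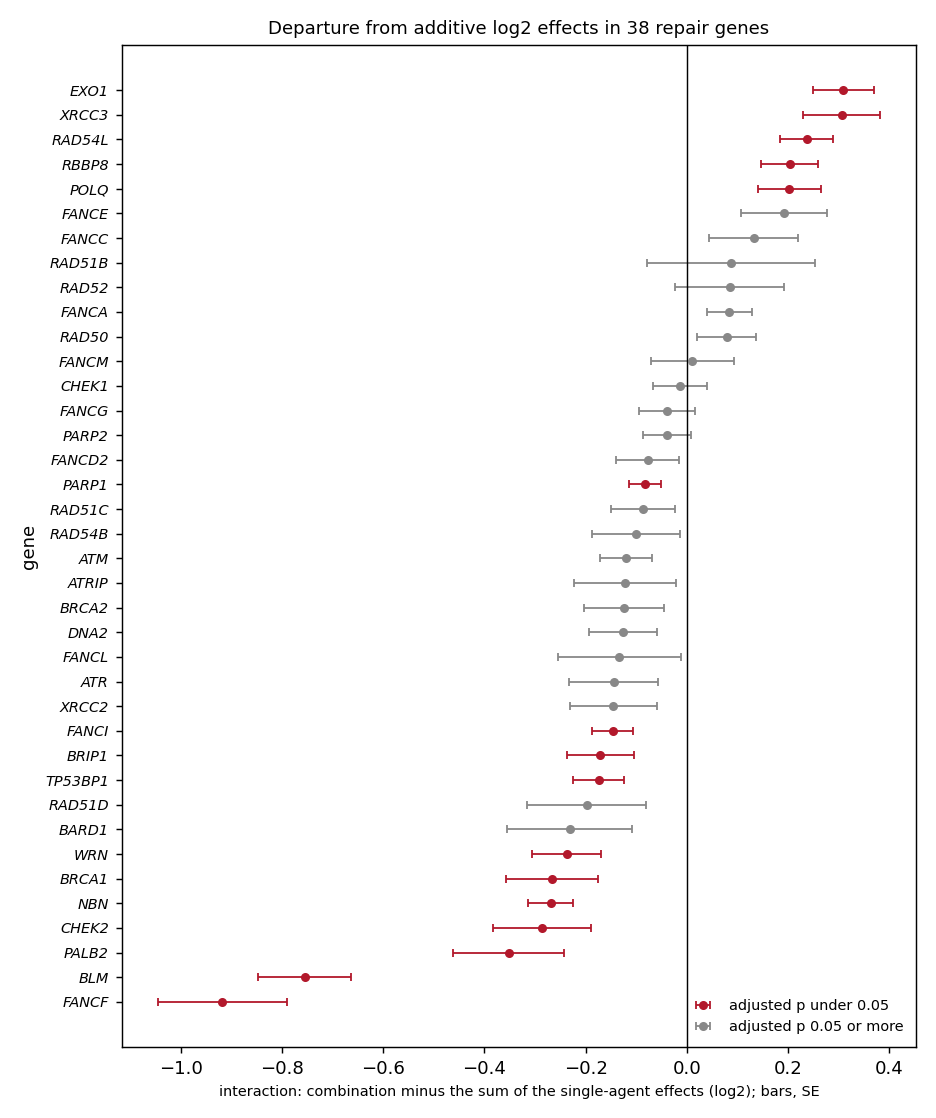
Interaction of EC359 and trametinib for 38 repair genes (MDC1 is left out), as the log2 change with the combination minus the sum of the log2 changes with the single agents; points are estimates, bars are standard errors, and red marks an adjusted p under 0.05. FANCF (-0.92) and BLM (-0.76) lie far to the left of the others, and EXO1 and XRCC3 (both 0.31) furthest to the right.

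Among the repair genes, the log2 change with EC359 was higher in genes of higher level per kilobase (Spearman's rho 0.40 over 38 genes; 0.02 over all genes) and in genes with more exon blocks (0.36; all genes, 0.19), but hardly in genes of longer span (0.05; all genes, 0.16). With the combination rho was 0.31 for the level (all genes, -0.02) and 0.28 for exon blocks (all genes, 0.16). These are descriptions across genes, which share libraries and are not independent. As a check chosen after the values were seen, 9 repair genes had a tested neighbour that starts within 1000 bp on the opposite strand. PALB2 and DCTN5, a dynactin subunit gene that starts 9 bp away, both fell with the combination, but with log2 fold changes of -1.56 and -0.34 (edgeR adjusted p = 4e-10 for DCTN5). ATM and its neighbour NPAT, an activator of histone genes, both rose (0.13 and 0.23). CHEK2 fell (-0.36) and its neighbour HSCB, an iron-sulfur co-chaperone, stood at 0.02 (edgeR adjusted p = 0.85). XRCC3 stood at -0.04 and its neighbour ZFYVE21 fell by 0.47.

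Other genes of homologous recombination and the Fanconi pathway also held more falls than rises with EC359 and the combination. Of 47 outside the 39, 21 were lower and 11 higher with EC359 (all genes, 30.3% and 30.8%), 5 and 5 with trametinib (all genes, 15.2% and 13.0%), and 20 lower and 12 higher with the combination (all genes, 34.7% and 35.0%; medians -0.06 and -0.01). The numbers were 28 and 6 with EC359 and 27 and 8 with the combination when scaled to total counts (all 14866 genes, 6673 and 3117, and 6811 and 3840). The nuclease subunits EME1, which works with MUS81, and ERCC4 (XPF) both fell with the combination (log2 fold change -1.06 each, edgeR adjusted p = 2.1e-16 and 2.5e-20), and EME1 was at 18.5 ± 1.30 CPM in control and 8.78 ± 0.403 with EC359 (SD, n = 3). SLX1A and SLX1B, near-identical copies of a nuclease gene whose reads cannot be told apart, stood at 0.91. Of 20 genes of break signaling and end choice, 8 rose and 9 fell with the combination (scaled to total counts, 6 and 11), led by the phosphatase PPM1D, which switches off damage signaling (1.83, edgeR adjusted p = 7.5e-40), and the ubiquitin-binding protein RNF169 (1.19), against the nuclease DCLRE1A (-0.92) and the histone H2AFX (-0.56). Of 20 genes of the ATR checkpoint and the fork, 9 rose and 10 fell (scaled to total counts, 6 and 10). The mitotic brake WEE1 (1.22, edgeR adjusted p = 5.9e-34) and the clamp subunit RAD9A (0.66) rose, and the ATR activator ETAA1 (-0.97) and the clamp loader RAD17 (-0.70, annotated on 2 sequences) fell.

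The other repair pathways, apart from translesion synthesis, held more falls than rises with the combination, where 34.7% of all genes were lower and 35.0% higher. When scaled to total counts, 6811 of all 14866 genes were lower and 3840 higher. Nonhomologous end joining, the alternative that rejoins ends without a template, had 9 lower and 4 higher of 15 tested (median -0.28), with the kinase PRKDC (0.40) up and the nuclease DCLRE1C (-1.01) and the polymerase POLM (-0.94) down. PRKDC, at 689 ± 24.6 CPM in control and 912 ± 37.1 with the combination (SD, n = 3), was part of a summed level of 2046 and 2170 CPM for that list. Base excision repair had 12 lower and 3 higher of 20 (APEX2 -1.15, NEIL2 -1.02, TDG 0.56, LIG1 0.34), and nucleotide excision repair 12 lower and 5 higher of 22, or 14 and 1 when scaled to total counts (ERCC2 -0.60, GTF2H2 -0.89 with uncertain counts on 3 sequences, DDB2 0.36). Mismatch repair had 4 lower and 1 higher of 7, or 6 and 0 under that scaling (PMS2 -1.30, a gene with near-identical copies and so uncertain, MLH3 -0.58, MSH3 0.22). Translesion synthesis, the bypass of damaged bases, had 3 lower and 5 higher of 12, and 5 and 4 when scaled to total counts (REV3L 0.72, UBE2B 0.58, PRIMPOL -0.76, POLI -0.65). The values in parentheses are log2 fold changes that passed the test.

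Cell cycle genes moved at the same time. Genes of G2 and mitosis were lower with EC359 (18 of 26, 4 higher) and the combination (17 of 26, 4 higher), where 30.3% and 34.7% of all genes were lower and 30.8% and 35.0% higher, and higher with trametinib (12 of 26, 1 lower; all genes, 13.0% and 15.2%), as for KIF20A (log2 fold changes -0.75, -0.93 and 0.23) and CCNA2, whose value with trametinib did not pass the test (-0.48, -0.88 and 0.03). When scaled to total counts, 23 of these genes were lower with EC359 and 22 with the combination, and 0 were higher in either. Under that scaling 6673 and 6811 of all 14866 genes tested were lower, and 3117 and 3840 were higher. E2F and S phase genes were more often higher than lower with EC359 (20 and 10 of 38) and the combination (20 and 11), but less often when scaled to total counts (14 and 16, and 14 and 19), with E2F1 at 0.74 and 1.07. Of 23 p53-responsive genes tested, 14 rose and 5 fell with the combination (all genes, 35.0% and 34.7%). CDKN1A, an inhibitor of cyclin-dependent kinases, went from 16.7 ± 0.301 CPM in control to 172 ± 4.95 (SD, n = 3; log2 fold change 3.36, edgeR adjusted p = 9.3e-56), and BBC3, a cell death activator, from 3.03 ± 0.364 to 49.0 ± 1.64 CPM. XPC, on the same list and in nucleotide excision repair, fell by 0.54. The part of cell cycle phase in the levels of the repair genes was not tested, and in RNA from whole cultures fewer cells in a phase and less RNA per cell cannot be told apart.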

How the data were processed

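Polyadenylated RNA of OVCAR8 cells was made into stranded libraries and read from both ends for 100 bp, with 3 libraries in each of 4 conditions, grouped by the treatment in the labels. Per the file headers, the authors ran featureCounts 1.5.0-p1 over exons, summed by gene (minimum mapping quality 2), dividing reads with several placements or overlapping genes, so the deposited values are estimated counts (expected counts), not normalized. The submitters' processing notes also name bcl2fastq, HISAT2 and hg38, without versions. Values were rounded to whole numbers. Of the 39 genes, 32 had a value that was not whole in at least 1 library. Totals ran from 24790392 to 32467283 reads, and a count of 0 allows up to 3 counts, or 0.0924 to 0.121 CPM, for counting error only.

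In R 4.3.3, edgeR 4.0.16 kept 14866 of 26485 genes by filterByExpr at a minimum count of 10 and a total of 15. TMM factors and 1 robust quasi-likelihood fit over 4 groups followed (biological coefficient of variation 3.95%), with Benjamini-Hochberg adjustment over all genes tested, a threshold of 0.05, and 2-fold as a second threshold. The standard error is the log2 fold change divided by the square root of F. The test was tested on simulated data. The repair genes and the other lists were chosen with earlier results of these data known. Named in each comparison were the 5 repair genes with the largest change each way among those past the threshold, 8 genes chosen for their role, and up to 2 genes each way from the other lists, some of which are not reported here. The remaining repair genes were described as well. Alternatives were DESeq2 1.42.0, its size factors in edgeR, total counts only, a fit restricted to the groups compared, no filter, a stricter filter (10 counts or more in each library), a replicate block, each library left out in turn, and the 2-fold threshold. Motif searches used Python 3.11.15 and RefSeq windows on GRCh38.p14.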

Additional observations from a re-analysis of the deposited data

Results flagged for a closer look

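The change with both agents differed from the sum of the single-agent changes for 16 of the 39 repair genes, by the interaction test of edgeR's quasi-likelihood model (adjusted p under 0.05; 30.3% of all genes tested passed in either direction). On the log2 scale the difference was -0.92 for FANCF, -0.76 for BLM, -0.35 for PALB2, -0.29 for CHEK2, -0.27 for NBN, -0.27 for BRCA1, -0.24 for WRN, -0.17 for TP53BP1, -0.17 for BRIP1, -0.15 for FANCI and -0.08 for PARP1. It was 0.20 for POLQ, 0.20 for RBBP8, 0.24 for RAD54L, 0.31 for XRCC3 and 0.31 for EXO1. With 1 library left out, the call was lost for PARP1 in 8 of 12 fits, BRIP1 in 6, BRCA1 in 4 and CHEK2 in 1. The cause of these differences was not tested.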

How the results depend on the processing

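Of the log2 fold changes of single repair genes, 1540 of 1599 values under another setting, and 2718 of 2808 with 1 library left out, kept their side of the threshold. Those that were called also kept their direction. A change of direction was not counted where neither value passed the test. Scaling to total counts alone left 1, 4 and 3 repair genes higher with EC359, with the combination, and in the combination against trametinib, put their medians at -0.2991, -0.3106 and -0.3763, and put that of the interaction at -0.1502, while the medians of all genes moved to -0.1463, -0.144, -0.16 and -0.0378. Under it the direction turned for FANCA (-0.0029) and CHEK1 (-0.0955) with EC359, ATM (-0.006) and PARP2 (-0.1323) with the combination, and ATM (-0.122), CHEK1 (-0.139) and FANCG (-0.0919) in the combination against trametinib. It also did for the EC359 rises of EXO1 (-0.0141), FANCI (-0.0175), FANCG (-0.0233) and RAD50 (-0.0367). The 2-fold threshold left 0 repair genes higher in any comparison, and 1 lower with EC359, 3 with the combination, 3 in the combination against trametinib and 0 in the others. With each library left out, the number higher with trametinib ran from 3 to 6 (3 without control library 2 or trametinib library 1), the number with an interaction below 0 from 7 to 12 (7 without EC359 library 3), the median with the combination from -0.1764 to -0.1448, and the median interaction from -0.1279 to -0.0871. The fit with the replicate block gave 9 higher and 22 lower with EC359, 5 and 1 with trametinib, and 7 and 21 with the combination, as without it. Correlations between the deviations of same-numbered libraries ran from -0.11 to 0.17, so the numbers were not taken as pairs. Between trametinib and the combination, however, same-numbered libraries gave 0.15, 0.07 and 0.11, and differently numbered ones from -0.14 to 0.03. DESeq2 gave 9 and 20, 5 and 1, and 7 and 19. Beyond these constructions the cause was not tested. Depth limits the lowest genes most, since FANCF had as few as 102 reads in a library and MDC1 fewer.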
